A study of Mus musculus with 6 samples.

Results

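The proteasome is the barrel-shaped protease that degrades ubiquitin-tagged proteins, and 40 genes for its constitutive subunits and assembly factors were followed in BV2 cells given lipopolysaccharide (LPS). The genes were taken by symbol through their Ensembl identifiers, and all 40 were found among the 55401 genes of the table. They encode the alpha ring (7 genes) and beta ring (7) of the core, the base (10) and lid (8) of the regulatory particle, activators and an inhibitor that bind the core (3), and assembly factors (5). All passed the filter on low counts, and the lowest count of any of them in any library was 759.

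BV2 is an immortalised mouse microglial line, and LPS is the component of bacterial outer membranes that activates microglia and macrophages. Poly(A)-selected RNA was sequenced from 6 libraries, 3 labelled Vehicle and 3 labelled LPS, in a study of the regulators of microglial inflammation. The labels gave neither dose nor time of LPS, named no clone or passage, and did not say whether each library is a culture of its own. The p-values therefore reflect the spread among these 6 libraries alone, which may be technical. As a line, BV2 models microglia outside the brain and without the cells that surround them there.

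In the core, outer alpha rings guard the entrance and inner beta rings hold the cutting sites. The regulatory particle caps the core: receptors in its base bind ubiquitin chains, a lid subunit removes them, and the ATPases of the base unfold the substrate and thread it in. Chaperones such as Pomp build the core in order. In cells exposed to interferon, the inducible subunits Psmb8, Psmb9 and Psmb10 can take the places of the catalytic subunits Psmb5, Psmb6 and Psmb7, which alters the peptides offered to MHC class I.

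The genes did not move as a block with LPS. By edgeR's quasi-likelihood test with Benjamini-Hochberg adjustment over all genes, 5 of the 40 rose and 4 fell at an adjusted p under 0.05, a share of 22.5%, where 23.6% of the 16371 tested genes were called. The rises were Psmd8, Psmd11, Psmb6, Psmd14 and Adrm1, 12.5% of the genes against 12.7% called higher among all tested genes. The falls were Psma1, Psma4, Psmc3 and Psme3, 10% against 10.9% called lower. Both shares are near those of the table as a whole. All 40 genes were abundant, and of the 7790 tested genes with a mean level at least that of the lowest of them, 33.2% were called. The median log2 fold change was 0.08, beside -0.02 for all tested genes, and the interquartile range ran from -0.07 to 0.21, beside -0.41 to 0.36. The largest rise, of Psmd8, was 1.84-fold and the largest called fall, of Psma1, 1.31-fold. Leaving out single libraries changed the counts. Without LPS 3, 9 rose and 3 fell (30% called, beside 26.4% of all tested genes). Without Vehicle 1 or Vehicle 2, 2 rose and 0 fell (5%, beside 15.2% and 13.7%). Without Vehicle 3, 3 rose and 0 fell (7.5%, beside 15.8%), and without LPS 1 or LPS 2, 3 rose and 2 fell (12.5%, beside 16.6% and 15.8%). The share was thus below that of all genes in 5 of these fits, and above it without LPS 3. Psmd8 and Psmd11 were called in every one of these fits.

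**Figure D1:**
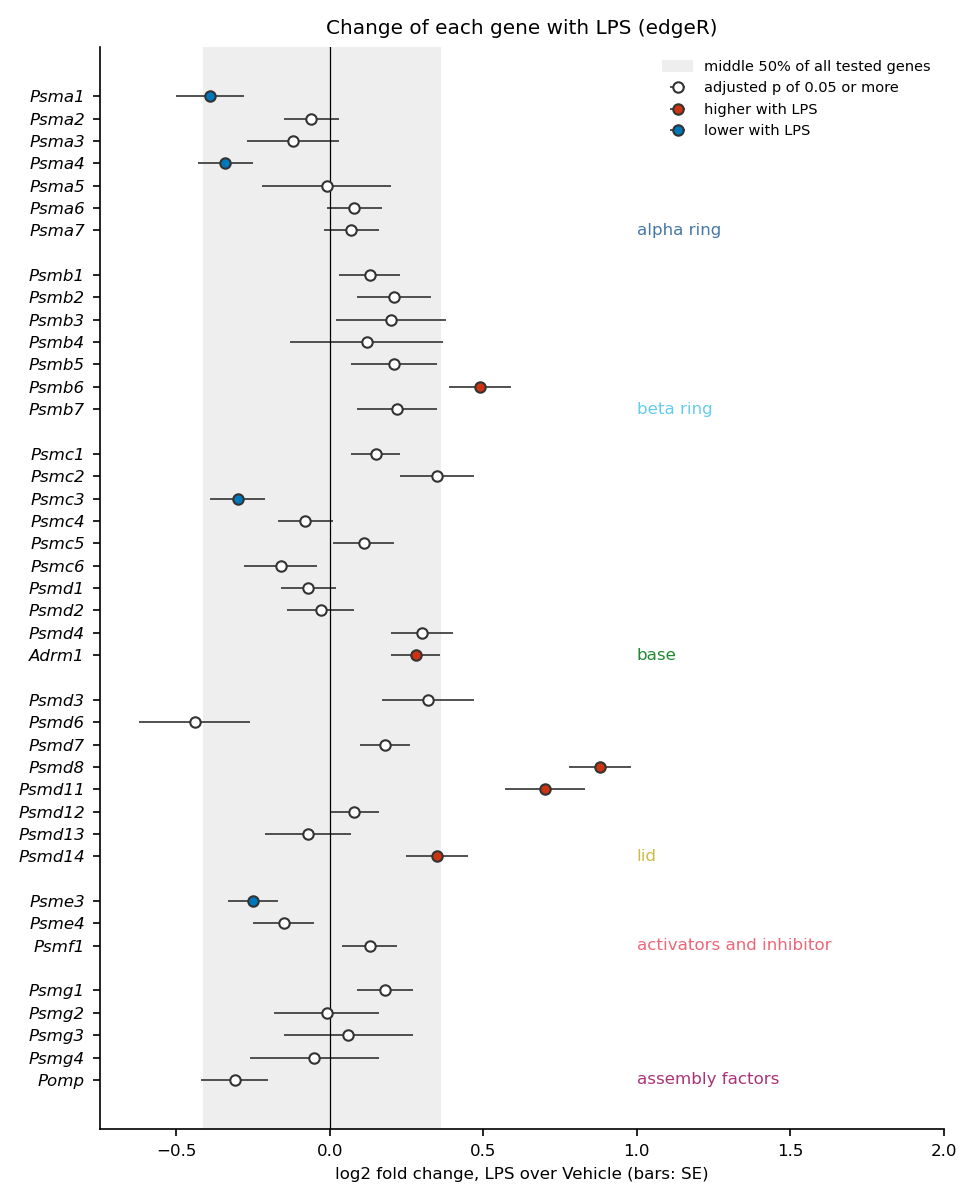
Log2 fold change of each of the 40 genes, LPS over Vehicle (horizontal axis), with bars of 1 standard error from edgeR (3 libraries per group), red for genes called higher, blue for genes called lower and white for the rest. The grey band is the interquartile range of all tested genes, from -0.41 to 0.36; Psmd8 at 0.88 and Psmd11 at 0.70 lie farthest from 0.

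The sequences before the transcription starts of Psmd8 and Psmd11, the largest rises, and of Adrm1, a called gene with a match to the antioxidant response element, are shown as examples of the windows in which motifs were searched. They come from RefSeq (GRCm38.p6); the authors' own build is not given in the sources used here. Each runs 5′ to 3′ on the gene's strand and is cut before the first annotated exon, which left 222 of 250 bases for Psmd8, 250 for Psmd11 and 147 for Adrm1. The capitals mark the core of the antioxidant response element, TGACNNNGC, to which Nfe2l1 and Nfe2l2 bind with small Maf proteins. Psmd8 is on the minus strand at chr7:29180702-29180923, Psmd11 on the plus strand at chr11:80428365-80428614 and Adrm1 on the plus strand at chr2:180171338-180171484.
Psmd8: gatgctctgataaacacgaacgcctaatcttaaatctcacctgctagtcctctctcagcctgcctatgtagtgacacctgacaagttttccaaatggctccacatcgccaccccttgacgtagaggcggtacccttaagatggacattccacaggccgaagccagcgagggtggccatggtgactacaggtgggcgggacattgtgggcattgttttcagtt
Psmd11: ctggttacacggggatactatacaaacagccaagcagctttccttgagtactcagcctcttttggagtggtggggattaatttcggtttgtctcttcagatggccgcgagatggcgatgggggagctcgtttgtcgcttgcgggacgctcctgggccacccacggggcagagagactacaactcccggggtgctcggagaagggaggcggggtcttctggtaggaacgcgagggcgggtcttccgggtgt
Adrm1: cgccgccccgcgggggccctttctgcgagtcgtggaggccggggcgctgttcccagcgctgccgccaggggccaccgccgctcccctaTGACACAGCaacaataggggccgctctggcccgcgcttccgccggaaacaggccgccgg

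A RefSeq start was held for 33 of the 40 genes (35 windows of 250 bases before the start). The 7 genes without a window were Psmb1, Psmb2, Psmb7, Psmc3, Psmd3, Psmd7 and Psmg2. They were not searched, and Psmc3 among them was a called fall. TGACNNNGC, read on both strands, was found in 5 of the 35 windows (14.3%), beside 10.2% of 32851 windows of the same length for all genes. The 5 genes were Adrm1, Psmb5, Psmb6, Psmc6 and Psmd12. In Psmb6 the letters were TGACGGAGC, at 9 bases before the start, and in Psmb5 TGACGTCGC, at 47 bases before it. In Adrm1 they were TGACACAGC, at 162 bases before the RefSeq start, which lies beyond the end of the stretch shown. Of these 5 genes 2 rose and 0 fell, and their median was 0.21 (log2 fold change); of the 28 others with a window 3 rose and 3 fell, with a median of 0.02. Among all tested genes 12.7% were called higher and 10.9% lower. Psmd8 and Psmd11 had no match in these windows. A simplified NF-kB site was found on either strand in 0 of 35 windows and in 1.41% of all windows. Other forms of the NF-kB site were not searched. A pattern this rare would seldom be met in 35 windows. The 0 therefore does not show that these genes lack NF-kB sites. The CCAAT box (CCAAT, both strands) was in 12 of 35 (34.3%) and in 33.8% of all windows. Matches of different motifs overlapped in 0 of the 35 windows. A match describes letters only.

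Of the 8 lid genes 3 rose (37.5%, where 12.7% of all tested genes were called higher), and 0 fell. The lid genes had a median log2 fold change of 0.25. Psmd8 (ENSMUSG00000030591) encodes the subunit whose entry completes the lid. Vehicle 1, 2 and 3 held 279, 317 and 342 CPM of Psmd8, and LPS 1, 2 and 3 held 556, 598 and 572. Every LPS library lay above every Vehicle library, and the rise was 1.84-fold (log2 fold change 0.88 ± 0.10, SE, edgeR adjusted p = 0.000448, and 5.84e-13 to 0.00484 over the alternatives). Psmd11 (ENSMUSG00000017428) encodes a scaffold subunit that helps to hold the regulatory particle on the core. In Vehicle 1, 2 and 3 Psmd11 was at 178, 139 and 166 CPM, and in LPS 1, 2 and 3 at 233, 299 and 256. The groups were again apart, although Vehicle 2 was lower than the other Vehicle libraries. The rise was 1.63-fold (0.70 ± 0.13, edgeR adjusted p = 0.00513, and 3.26e-05 to 0.0245 over the alternatives).

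Psmd14 (ENSMUSG00000026914), the metalloprotease that cuts ubiquitin chains off substrates, rose less. Psmd14 had 185, 183 and 190.3 CPM in the Vehicle libraries in order, against 253, 251 and 209 in the LPS libraries. LPS 3 lay closer to the Vehicle libraries than LPS 1 and 2 did, without overlap. Its log2 fold change was 0.35 ± 0.10 (edgeR adjusted p = 0.0296), and the call did not hold with scaling to total counts or on dropping any of the libraries other than LPS 3 (adjusted p up to 0.113). The other lid genes did not pass the test, which does not show that they were unchanged. Psmd3 had 0.32 ± 0.15, Psmd7 0.18 ± 0.08, Psmd12 0.08 ± 0.08, Psmd13 -0.07 ± 0.14 and Psmd6 -0.44 ± 0.18, the lowest value of the 40 genes. The CPM of Psmd6 were 106, 111 and 84.2 across Vehicle 1, 2 and 3, against 88.3, 78.0 and 55.9 across LPS 1, 2 and 3. LPS 1 lay within the range of the Vehicle libraries, and the edgeR adjusted p of Psmd6 was 0.117. Psmd6 was called with the replicate number as a block, at an adjusted p = 0.0225.

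Summed over the 8 lid genes, the level was 1457, 1448 and 1539.8 CPM across Vehicle 1, 2 and 3, against 1895, 2074 and 1917 across LPS 1, 2 and 3. All LPS libraries lay above all Vehicle libraries, with a ratio of means of 1.32. Without Psmd8 and Psmd11, chosen here for their rise, the ratio was 1.12 and the groups remained apart. In bulk RNA, a different number of cells of a type and a different amount of RNA per cell cannot be told apart.

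Most values lay above 0 in the beta ring and below 0 in the alpha ring. All 7 beta ring genes had log2 fold changes above 0, from 0.12 to 0.49 with a median of 0.21, and 1 rose. Of the 7 alpha ring genes 5 lay below 0, with a median of -0.06, and 2 fell. Over all tested genes, 48.7% lay above 0, 12.7% were called higher and 10.9% lower. This contrast between rings was not tested, and the sign of Psmb4 turned without Vehicle 3 or LPS 2 (to -0.05 at the lowest). Without LPS 3 the alpha ring median was 0.04, and 3 of its 7 genes lay below 0.

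Among the 3 catalytic subunits Psmb6 alone passed the test. Psmb6 (ENSMUSG00000018286) carries the activity that cuts after acidic residues. Vehicle 1, 2 and 3 held 388, 403 and 416 CPM of Psmb6, and LPS 1, 2 and 3 held 596, 613 and 485. The groups did not overlap, and LPS 3 was the lowest of the LPS libraries. The rise was 1.404-fold (0.49 ± 0.10, edgeR adjusted p = 0.0106), and it was lost without Vehicle 1 or Vehicle 2, with values up to 0.0511. Psmb5 (ENSMUSG00000022193) cuts after hydrophobic residues and is the target of bortezomib. In Vehicle 1, 2 and 3 Psmb5 was at 308, 279 and 246 CPM, and in LPS 1, 2 and 3 at 329, 369.8 and 266. The groups overlapped through LPS 3, with 0.21 ± 0.14 and an edgeR adjusted p = 0.308. Psmb7 (ENSMUSG00000026750) cuts after basic residues. Psmb7 had 351, 364 and 315 CPM in the Vehicle libraries in order, against 415, 465 and 323 in the LPS libraries. LPS 3 lay within the Vehicle range, and 0.22 ± 0.13 gave an edgeR adjusted p = 0.277. Whether the changes of the 3 subunits differ from each other was not tested. An exon of Psmb7 shares 253 bases with one of Nek6 on the opposite strand, which averaged 195 CPM in Vehicle and 262 in LPS. No source states a strand-marking kit, so reads of that stretch cannot be told apart.

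The structural beta subunits had 0.13 ± 0.10 (Psmb1), 0.21 ± 0.12 (Psmb2), 0.20 ± 0.18 (Psmb3) and 0.12 ± 0.25 (Psmb4), and none passed the test. Psmb4 varied most within a group. The CPM of Psmb4 were 356, 331 and 259 across Vehicle 1, 2 and 3, against 388, 417 and 221 across LPS 1, 2 and 3. Its values in both libraries numbered 3 were the lowest of their groups. Psmb3 behaved alike only in LPS, with 177 and 191 CPM in LPS 1 and 2 and 114 in LPS 3, beside 137 to 142 in Vehicle.

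In the alpha ring Psma1 and Psma4 fell. Psma4 (ENSMUSG00000032301) encodes the subunit whose tail is central to the closed gate of the core. Psma4 stood at 195, 208 and 202 CPM for Vehicle 1, 2 and 3, then at 172, 158 and 149 for LPS 1, 2 and 3. All LPS libraries were below all Vehicle libraries (-0.34 ± 0.09, edgeR adjusted p = 0.0245). Psma1 (ENSMUSG00000030751), another ring subunit, was lower in LPS 2 and 3 than in LPS 1. Vehicle 1, 2 and 3 held 185, 179.7 and 176 CPM of Psma1, and LPS 1, 2 and 3 held 161, 129 and 122. Its change was -0.39 ± 0.11 (edgeR adjusted p = 0.0366). Both calls were lost without any 1 of the Vehicle libraries or without LPS 2, with values up to 0.1003 for Psma4 and 0.117 for Psma1, which was also lost without LPS 3. Psma2, Psma3, Psma5, Psma6 and Psma7 did not pass the test, with log2 fold changes from -0.12 (Psma3) to 0.08 (Psma6). Those of Psma3 and Psma5 were above 0 without LPS 3, and that of Psma5 also without Vehicle 1. The signs of Psma6 and Psma7 turned with scaling to total counts.

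**Figure D2:**
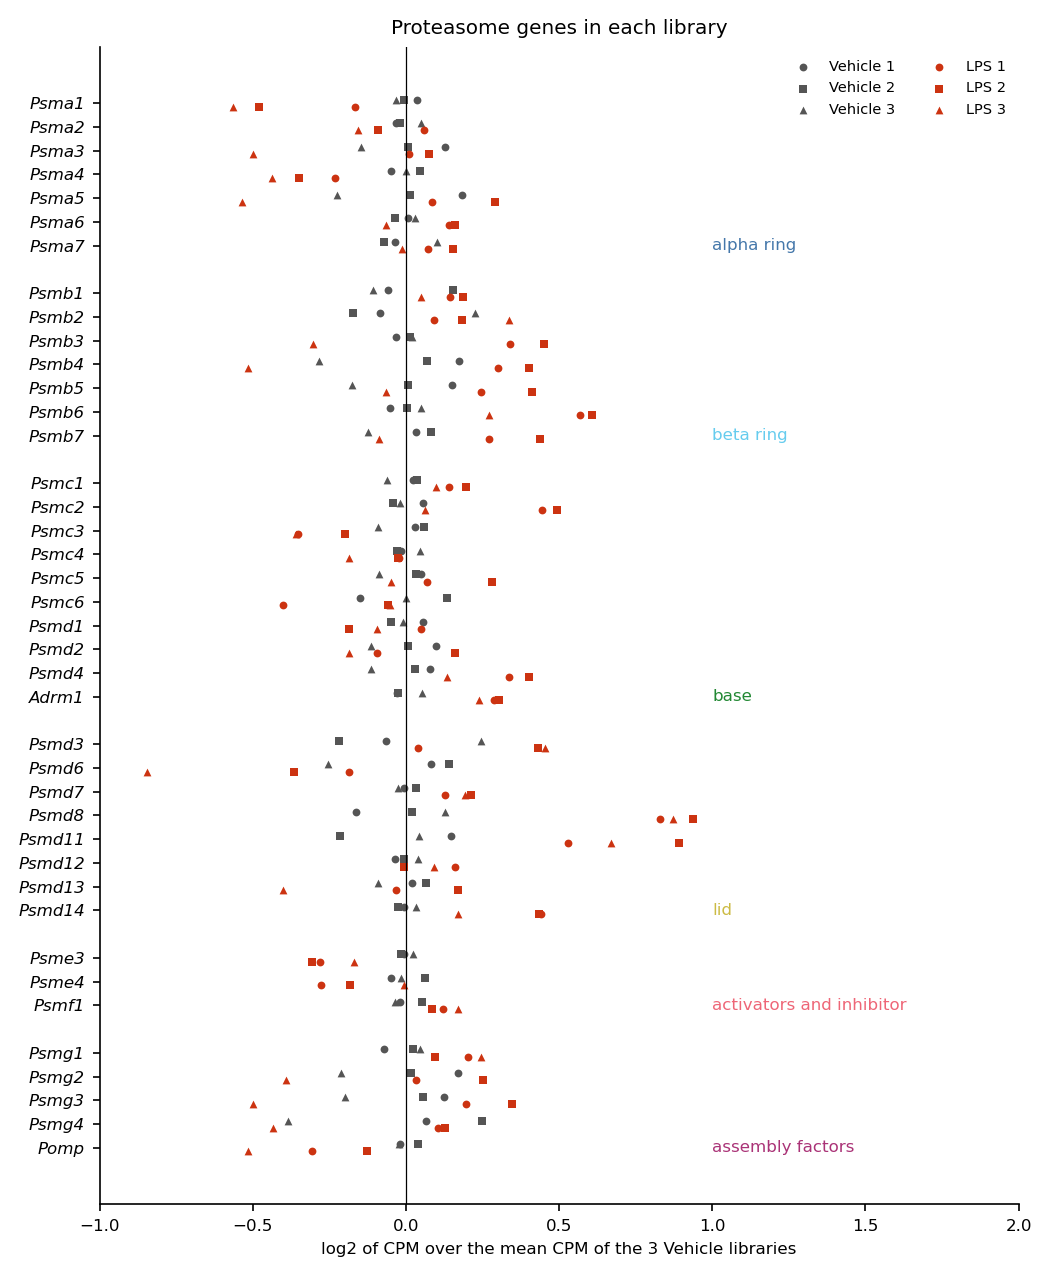
Level of each gene in each library, as log2 of its CPM over the mean CPM of the 3 Vehicle libraries (horizontal axis); grey symbols are Vehicle, red symbols LPS, and circles, squares and triangles mark libraries 1, 2 and 3. The red symbols of Psmd8 and Psmd11 all lie to the right of the grey ones, those of Psma1 and Psma4 to the left, and the red triangle of LPS 3 is the lowest red symbol in 28 of 40 genes.

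In the base the genes went both ways. Of 10 genes 1 rose and 1 fell, where 12.7% of all tested genes were called higher and 10.9% lower. The median of the 10 was 0.04 (log2 fold change). Adrm1 (ENSMUSG00000039041), a ubiquitin receptor that also recruits the deubiquitinase Uchl5, rose. In Vehicle 1, 2 and 3 Adrm1 was at 133, 133 and 141 CPM, and in LPS 1, 2 and 3 at 165, 167 and 159.8. The libraries of each group lay close together and the groups were apart (0.28 ± 0.08, edgeR adjusted p = 0.0345). The call was lost in 9 of 16 alternatives, with adjusted p up to 0.130, among them upper quartile and total count scaling, no filter, the replicate block (adjusted p = 0.0637) and the loss of any library but LPS 3. Psmc3 (ENSMUSG00000002102), an ATPase whose tail docks into the alpha ring, fell. Psmc3 had 245, 249 and 225 CPM in the Vehicle libraries in order, against 188, 209 and 187 in the LPS libraries. All LPS libraries were lower (-0.30 ± 0.09, edgeR adjusted p = 0.0384), and the call was lost without any 1 of the Vehicle libraries or LPS 1, with values up to 0.133. An exon of Psmc3 shares 147 bases with one of Slc39a13 on the opposite strand, which averaged 27.7 CPM in Vehicle and 30.6 in LPS.

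Of the other ATPases, Psmc1 had 0.15 ± 0.08, Psmc2 0.35 ± 0.12, Psmc4 -0.08 ± 0.09, Psmc5 0.11 ± 0.10 and Psmc6 -0.16 ± 0.12. Their products form a single ring with that of Psmc3, in which each has a fixed place. Psmc2 came nearest to the threshold, with an edgeR adjusted p = 0.0712 and groups that were barely apart. The CPM of Psmc2 were 168, 157 and 159.5 across Vehicle 1, 2 and 3, against 220.1, 227 and 169 across LPS 1, 2 and 3. Psmd4, another ubiquitin receptor of the particle, had 0.30 ± 0.10 (edgeR adjusted p = 0.0648) with groups apart. It was called with the replicate block at an adjusted p = 0.0493. Psmd1 and Psmd2, the large scaffold subunits, had -0.07 ± 0.09 and -0.03 ± 0.11.

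Of the genes for other proteins that bind the core, 1 of 3 fell, where 10.9% of all tested genes were called lower. Psme3 (ENSMUSG00000078652) encodes a nuclear activator that opens the core without ubiquitin. Psme3 stood at 285, 283 and 291 CPM for Vehicle 1, 2 and 3, then at 235, 231 and 255 for LPS 1, 2 and 3. The LPS libraries were all lower (-0.25 ± 0.08), at an edgeR adjusted p of 0.0498 that barely passed. The call was lost with no filter, with the replicate block (adjusted p = 0.0725) and without any library but LPS 3, with values up to 0.137. Psme4 (ENSMUSG00000040850), an activator linked to histone turnover, did not pass the test. Vehicle 1, 2 and 3 held 109, 118 and 112 CPM of Psme4, and LPS 1, 2 and 3 held 93.6, 99.9 and 113. LPS 3 lay within the Vehicle range (-0.15 ± 0.10, edgeR adjusted p = 0.310). Psmf1 (ENSMUSG00000032869) encodes a protein first described as an inhibitor of the core. In Vehicle 1, 2 and 3 Psmf1 was at 59.9, 62.9 and 59.1 CPM, and in LPS 1, 2 and 3 at 65.97, 64.3 and 68.3. The LPS libraries were higher by less than the test could call (0.13 ± 0.09, edgeR adjusted p = 0.344).

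No assembly factor passed the test (0 of 5, beside 23.6% of all tested genes), a list too small to set apart from that share. DESeq2 and limma voom also called 0 of the 5. Pomp (ENSMUSG00000029649), the chaperone that drives beta ring assembly and is degraded by the finished core, had the value farthest from 0. Pomp had 105, 109 and 105 CPM in the Vehicle libraries in order, against 86.02, 97.3 and 74.4 in the LPS libraries. The LPS libraries were all lower (-0.31 ± 0.11, edgeR adjusted p = 0.0805), and Pomp was called with total counts, where its adjusted p = 0.0238, and without LPS 2 at 0.0426. The chaperone pair Psmg1 and Psmg2, which starts the alpha ring, had 0.18 ± 0.09 and -0.01 ± 0.17, and the pair Psmg3 and Psmg4 had 0.06 ± 0.21 and -0.05 ± 0.21. Psmg3 ranged from 17.6 CPM in LPS 3 to 31.8 in LPS 2, across the Vehicle range of 21.8 to 27.2.

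Counting only whether the groups overlapped, 16 of 40 genes (40%) were apart, beside 40.8% of all tested genes. Of these 11 were higher with LPS (27.5%, beside 20.8%) and 5 lower (12.5%, beside 20%). The 11 were Psmb6, Psmc1, Psmc2, Psmd4, Adrm1, Psmd7, Psmd8, Psmd11, Psmd14, Psmf1 and Psmg1, and the 5 were Psma1, Psma4, Psmc3, Psme3 and Pomp. The summed level of the 40 genes was 7815, 7750.5 and 7550.1 CPM across Vehicle 1, 2 and 3, against 8568, 9102 and 7723 across LPS 1, 2 and 3. LPS 1 and 2 were above every Vehicle library and LPS 3 was within their range. The genes took 0.768% to 0.859% of all counts of a library.

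The libraries numbered 3 departed from the others in many of these genes. Within LPS, LPS 3 was the lowest library for 28 of 40 genes (70%), beside 37.7% of all tested genes. Within Vehicle, Vehicle 3 was the lowest for 20 (50%, beside 35.4%). For 18 genes (45%, beside 17.2%) it was the lowest library in both groups, among them Psmb4, Psmb5, Psmb7, Psma5, Psmg2, Psmg3 and Psmg4. Relative to LPS 1 and 2, log2 CPM in LPS 3 was lower by 0.87 for Psmb4, by 0.77 for Psmg3 and by 0.72 for Psma5, and higher by 0.22 for Psmd3 and Psme4. By role, all 7 alpha ring genes, 6 of 7 beta ring genes, 8 of 10 base genes and 4 of 5 assembly factors were lowest in LPS 3, but 3 of 8 lid genes and 0 of 3 activators and inhibitor.

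Across the 40 genes the departure of LPS 3 from LPS 1 and 2 and that of Vehicle 3 from Vehicle 1 and 2 had a Pearson's r of 0.72 and a Spearman's rho of 0.66. Over all 16371 tested genes these were 0.06 and 0.16. Genes within a library share its depth and preparation and are not replicates. The departure of LPS 3 was also related to the length of the principal transcript, with an r of 0.48 over the 40 genes, so that shorter transcripts were lower there. LPS 3 had 49016002 counts and Vehicle 3 45969690, the lowest total in each group. The part of library quality in these departures was not tested. The coefficient of variation of a gene had a median of 5.28% in Vehicle and 11.1% in LPS, with a maximum of 31.0% (Psmb4 in LPS).

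**Figure D3:**
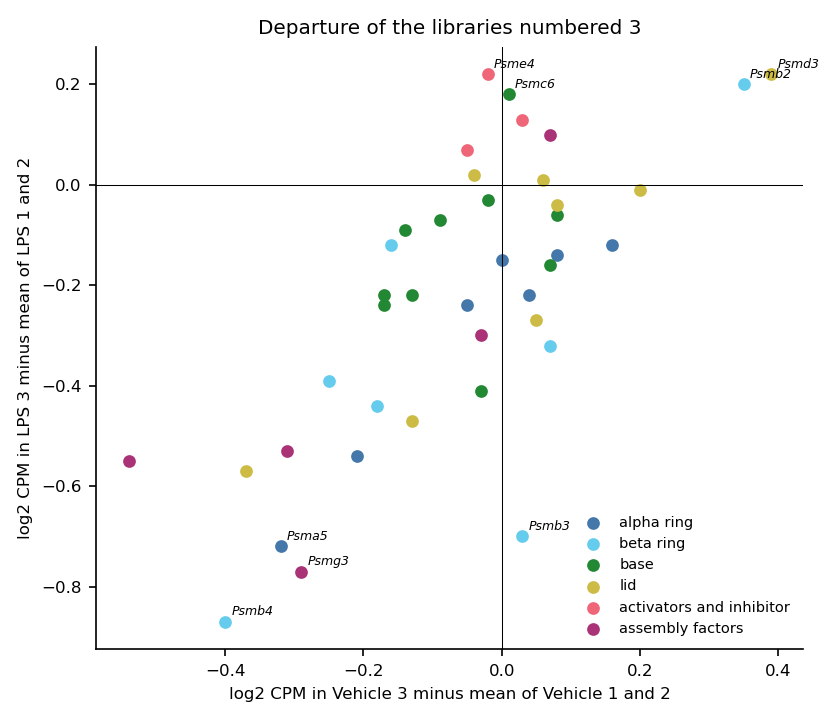
Departure of LPS 3 from the mean of LPS 1 and 2 (vertical axis) against that of Vehicle 3 from the mean of Vehicle 1 and 2 (horizontal axis), in log2 CPM, 1 point per gene and coloured by role. Most points lie below 0 on the vertical axis, down to -0.87 for Psmb4, and Psmb2 and Psmd3 lie at the upper right.

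Without LPS 3, the genes gained to the call were Psmb3, Psmb7, Psmc2 and Psmd4, all higher, and Psma1 was lost. The summed beta ring level was 1795, 1791 and 1653 CPM across Vehicle 1, 2 and 3, against 2196, 2361 and 1711 across LPS 1, 2 and 3. The ratio of means was 1.20 with all libraries and 1.305 without LPS 3. For the lid the 2 ratios were 1.32 and 1.34, for the base 1.03 and 1.07, and for the alpha ring 0.94 and 0.99.

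Levels of different genes were compared as CPM per kb of the principal transcript, since longer transcripts give more counts. In Vehicle Psmb6 was highest, at 504 ± 17.7 CPM per kb (SD, n = 3), followed by Psmb5 at 309 ± 34.6 and Psmb7 at 296 ± 21.7, whose difference was within their spread. Psmb4 came next at 266 ± 42.4, also within the spread of Psmb7. Psmf1 was lowest at 15.9 ± 0.53, with Psme4 next at 17.5 ± 0.71. Median levels in Vehicle were 266 for the beta ring, 150.2 for the alpha ring, 109 for the base, 96.8 for the lid, 43.9 for assembly factors and 17.5 for the activators and inhibitor. Within the alpha ring, whose subunits have equal number in the particle, the levels spanned 4.71-fold, from 49.8 for Psma3 to 235 for Psma6. This span depends on the lengths taken, 2846 bases for Psma3 and 1042 for Psma6. Before that division their Vehicle means were closer, at 142 and 244 CPM. With LPS, Psmd8 went from 203 ± 20.4 to 374 ± 13.9 CPM per kb (SD, n = 3), next after Psmb6 in the order with LPS, though within the spread of Psmb5 at 358 ± 58.4. The order depends on the transcript taken: with the longest annotated one, Psmb7 was at rank 15 and Psmb6 and Psmb5 kept ranks 1 and 2.

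**Figure D4:**
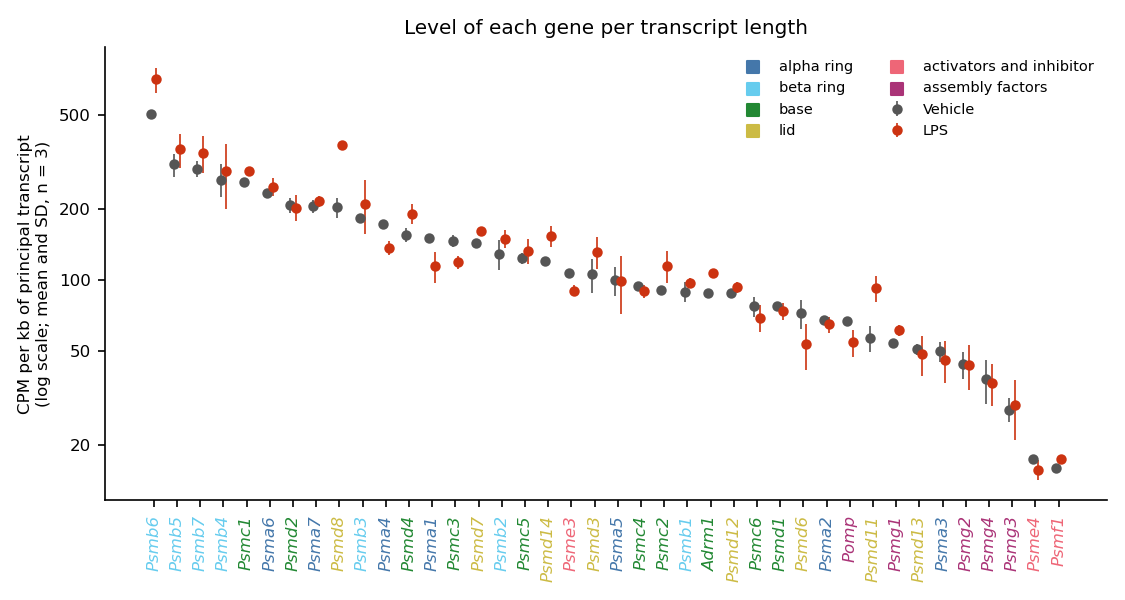
CPM per kb of principal transcript for each gene (vertical axis, log scale), as mean and SD of 3 libraries, grey for Vehicle and red for LPS, ordered by the Vehicle level with names coloured by role. Psmb6 is highest at 504 in Vehicle, and Psmd8 has the largest ratio between the groups, 374 over 203.

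None of the inducible counterparts was called higher, which does not show that none rose. Of the 5 genes for inducible subunits and their cap, Psme1 and Psme2, 0 were called higher and 1 lower. Of all tested genes, 12.7% were called higher and 10.9% lower. A list of 5 genes is too small to set its counts apart from these shares. Psmb8 (ENSMUSG00000024338), the counterpart of Psmb5, fell. Vehicle 1, 2 and 3 held 75.4, 77.3 and 70.5 CPM of Psmb8, and LPS 1, 2 and 3 held 61.5, 58.3 and 52.96. All LPS libraries were lower (-0.37 ± 0.10, edgeR adjusted p = 0.0273, lost without any 1 of the Vehicle libraries or LPS 2, with values up to 0.105). Psmb9 (ENSMUSG00000096727), the counterpart of Psmb6, had lower values too. In Vehicle 1, 2 and 3 Psmb9 was at 17.1, 16.3 and 13.6 CPM, and in LPS 1, 2 and 3 at 12.03, 11.7 and 9.13. Its -0.52 ± 0.17 missed the threshold (edgeR adjusted p = 0.0555) and passed in 6 of 16 alternatives, DESeq2 (adjusted p = 0.0255) and the replicate block (0.0409) among them. Psmb10 had 0.25 ± 0.14, Psme1 0.28 ± 0.10 and Psme2 0.28 ± 0.22, none past the test, and all 3 were called higher without LPS 3. For Psme1 every LPS library lay above every Vehicle library, while the groups overlapped for Psmb10 and Psme2. Psme2 has a close copy, Psme2b, whose mean was 35.3 ± 3.04 CPM for Vehicle libraries and 44.9 ± 18.2 for LPS libraries (SD, n = 3), so the value of Psme2 is uncertain. Named pseudogenes of the constitutive genes (Psmb5-ps, Psmb6-ps, Psmb6-ps2 and Psmb7-ps2) held at most 27 counts in a library.

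Set as ratios of CPM within a library, Psmb8 over Psmb5 was 0.245, 0.277 and 0.287 across Vehicle 1, 2 and 3, against 0.187, 0.158 and 0.199 across LPS 1, 2 and 3. The ratio was lower in every LPS library, with means of 0.269 ± 0.022 and 0.181 ± 0.021 (SD, n = 3). Psmb9 over Psmb6 was 0.0442, 0.0404 and 0.0327 across Vehicle 1, 2 and 3, against 0.0202, 0.0190 and 0.0188 across LPS 1, 2 and 3. This ratio was also lower in every LPS library, at 0.49 of its Vehicle mean; of its terms Psmb6 rose and Psmb9 did not pass the test. Psmb10 over Psmb7 overlapped between groups, with means of 0.113 ± 0.014 and 0.115 ± 0.0051 (SD, n = 3). Psme1 over Psme3 was higher in every LPS library (0.286 ± 0.012 and 0.416 ± 0.051). Psme2 over Psme3 overlapped (0.250 ± 0.031 and 0.365 ± 0.123), with LPS 3 at 0.232, within the Vehicle range of 0.219 to 0.281. With 3 libraries a group, an exact permutation test cannot give a two-sided p under 0.1, so no test is given for these ratios.

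**Figure D5:**
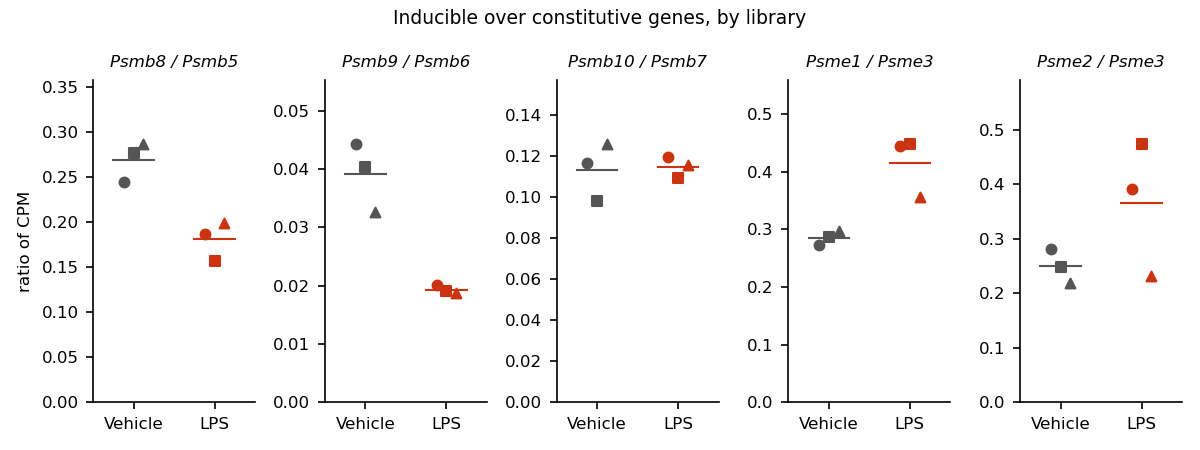
Ratio of CPM of an inducible gene to that of a constitutive one (vertical axis, starting at 0), 1 panel per pair, with circles, squares and triangles for libraries 1, 2 and 3 and a line at the mean of each group. The ratios of Psmb8 to Psmb5 and of Psmb9 to Psmb6 are lower in all LPS libraries, and that of Psmb10 to Psmb7 is level.

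Other genes of the pathway were taken from fixed lists. Calls in them stand beside 12.7% of all tested genes called higher and 10.9% called lower. Ubb (ENSMUSG00000019505), which encodes a chain of ubiquitin units, rose. Ubb stood at 1096, 1072 and 1329 CPM for Vehicle 1, 2 and 3, then at 1483, 1431 and 1845 for LPS 1, 2 and 3. Every LPS library was above every Vehicle library. The log2 fold change was 0.44 ± 0.13 (edgeR adjusted p = 0.0362), and the call was lost with total count scaling and without Vehicle 1, Vehicle 2 or LPS 1 (adjusted p up to 0.145). Usp14, a deubiquitinase that sits on the base, fell (-0.35 ± 0.08, edgeR adjusted p = 0.0119). Dropping Vehicle 2 ended that call (adjusted p = 0.0627). Of the 6 other genes tied to the regulatory particle, Psmd10, a chaperone of the base, rose (0.63 ± 0.17, edgeR adjusted p = 0.0271), a call that was kept without LPS 3 and lost without each of the others. Of 5 genes for peptide loading on MHC class I, Erap1, which trims peptides, fell (-1.02 ± 0.15) and the others did not pass the test. Psmd5, Psmd9, Sem1, Txnl1 and Ecpas did not pass it either.

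Of 9 genes listed as regulators of proteasome genes or of proteasome import into the nucleus, 4 rose and 1 fell. Over all tested genes 12.7% were called higher and 10.9% lower. Maff, a small Maf protein that pairs with the Nfe2l factors, had the largest rise. Vehicle 1, 2 and 3 held 25.3, 18.2 and 11.9 CPM of Maff, and LPS 1, 2 and 3 held 63.3, 70.6 and 53.9. The groups did not overlap (1.75 ± 0.25, edgeR adjusted p = 0.00243). Ngly1, the enzyme that strips sugars from Nfe2l1 on its way to activity, rose 2.15-fold. In Vehicle 1, 2 and 3 Ngly1 was at 12.9, 12.5 and 10.4 CPM, and in LPS 1, 2 and 3 at 27.8, 27.2 and 22.1. Its log2 fold change was 1.10 ± 0.15 (edgeR adjusted p = 0.00136). Mafk (0.64 ± 0.12) and Akirin2 (0.49 ± 0.12), which carries proteasomes into the nucleus, also rose, and Bach1, a repressor at the same elements, fell (-0.47 ± 0.13). Akirin2 lost its call without any library but LPS 3, and Bach1 without Vehicle 1, Vehicle 2, LPS 1 or LPS 2 (adjusted p up to 0.106). Nfe2l1 itself, named here after its values were seen, was uneven. Nfe2l1 had 55.5, 72.1 and 230.3 CPM in the Vehicle libraries in order, against 81.4, 98.96 and 415 in the LPS libraries. Vehicle 3 and LPS 3 stood above all other libraries, and edgeR gave 0.74 ± 0.89 (adjusted p = 0.612). Nfe2l2 had -0.09 ± 0.08 and did not pass the test.

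Tnf and Nos2, known targets of LPS signalling, were strongly induced, by edgeR. Tnf rose from 98.3 ± 6.13 to 1034 ± 87.3 CPM and Nos2 from 2.51 ± 0.32 to 513 ± 56.6 (SD, n = 3). Library totals lay between 45969690 and 59023474 estimated counts. All 10 microglia and macrophage markers were tested, with a summed level of 3067 to 3410 CPM in Vehicle and 2301 to 2684 in LPS, although Aif1 (1.76 to 4.58 CPM) and Cx3cr1 (0.66 to 2.50) were low. Summed markers of neurons ran from 1.74 to 10.6 CPM, of astrocytes from 1.70 to 7.95 and of fibroblasts from 0.15 to 0.78, with Lum at 0 in every library. Those of oligodendrocytes ran from 35.9 to 42.7, mostly Cnp, and of endothelial cells from 70.8 to 75.3 in Vehicle and 50.9 to 68.5 in LPS, mostly Flt1. The summed levels of the macrophage and endothelial markers were lower with LPS, but not every gene was. Csf1r, Tyrobp and Lyz2 were called lower, and no endothelial marker was called. Fcer1g and Pecam1 had log2 fold changes above 0 without a call. The part of these markers in the results was not tested.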

How the data were processed

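Libraries were made from oligo(dT)-enriched RNA with a NEBNext Ultra kit and run on an Illumina sequencer, per the labels' protocols. Bowtie2 2.2.8, HISAT2, StringTie 1.3.1 and DESeq2 are named in the submitters' processing notes, without roles; the genome build is not given in the sources used here, nor is the annotation. The values the authors deposited are estimated counts of each gene (treated as such because low values are not spaced by 1); all were whole numbers, and low values were spaced by 3.86 to 3.90 counts, so a count is not a read. Columns were matched to samples by name, with 0 unmapped.

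Symbols and lengths came from GENCODE M21 by Ensembl identifier (55141 of 55401 rows matched). The transcript length is that of the longest transcript tagged as principal. Genes were filtered with filterByExpr (minimum count 10, minimum total 15), scaled by TMM and tested with edgeR 4.0.16 (R 4.3.3), quasi-likelihood F-test, two-sided, robust, with Benjamini-Hochberg adjustment over all tested genes and a threshold of 0.05. The ± of a log2 fold change is its SE. CPM were TMM-scaled; log2 CPM used a prior count of 2. Alternatives were other scalings and filters, DESeq2 1.42.0, limma voom (3.58.1), edgeR's older test, counts divided by their step, a replicate block, and leaving out each library. Figures used matplotlib 3.10.9.

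The test was also tried on simulated data with known changes. Not passing it does not show that a gene was unchanged.

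The members and the lists were chosen with earlier results of these data known. Values per library are given for called members (the 5 largest each way), the catalytic subunits, Pomp, the caps and Psmd6, Psmc2 and Psmb4, these last after their values were seen. Of other lists, the inducible genes are named in full and up to 2 called genes each way, with Mafk, Akirin2 and Nfe2l1 added. Promoter motifs, and Zfand2a, were also chosen after the data were seen. Paaf1 was listed but is not analysed here, and some results of the other lists are not reported here.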

Additional observations from a re-analysis of the deposited data

How the results depend on the processing

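The 5 rises and 4 falls were the same counts with the size factors of DESeq2, the stricter filter, DESeq2, limma voom, the older edgeR test, division by the step and the replicate block. With scaling to total counts 3 members rose and 5 fell, the median of the members was -0.01 in place of 0.08, and 42.2% of all called genes were higher in place of 53.9%. With upper quartile scaling 4 rose and 4 fell, and with no filter 4 rose and 3 fell. Leaving out 1 library gave 2 to 9 members called higher, 0 to 3 called lower and a median of 0.02 to 0.14. Over all genes it gave 2344 to 4535 calls, 1291 to 2450 higher and 1053 to 2085 lower, with the lowest counts without Vehicle 2 and the highest without LPS 3. Fewer libraries entered those fits; the cause of the gain without LPS 3 was not tested.

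Of the 16 alternatives, Psmd8 and Psmd11 kept their call in all and Psmb6 in 14, while Adrm1 kept it in 7, Psme3 in 9 and Psmd14 in 10. For the single genes named, 866 of the values kept their side of the threshold, 61 lost a call and 17 gained one, and no call changed sign. With the replicate number as a block, 3816 genes were called, 2033 higher and 1783 lower, against 3864. Among the members Psmd4 and Psmd6 gained a call, Adrm1 and Psme3 lost it, and no other member's call changed. Same-numbered libraries had correlations of deviations of 0.073, 0.045 and 0.058, under the 0.1 set for pairing, although each was the highest for its library, so the number is no more than a hint of pairing.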

Other observations

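Zfand2a, which encodes a stress-induced protein that binds the proteasome, stood at 74.6, 73.9 and 84.9 CPM for Vehicle 1, 2 and 3. The LPS libraries held 71.7, 72.7 and 19.04. All were below the Vehicle libraries, LPS 1 and 2 narrowly and LPS 3 by far, and edgeR gave a log2 fold change of -0.51 ± 0.48 (adjusted p = 0.506). In LPS 3 Nfe2l1 had its highest level of the 6 libraries, as described above.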
